A study of Mus musculus with 2 samples.

Results

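Messenger RNA levels of 10 genes of the thick ascending limb and the distal tubule were compared between whole kidneys of WT+AKI and TG+AKI mice, with 1 library per group. The genes were chosen by symbol for their roles in calcium, magnesium and salt handling outside the solute carrier family: *Umod*, *Bsnd*, *Calb1*, *Trpv5*, *Trpm6*, *Pvalb*, *Wnk1*, *Wnk4*, *Klhl3* and *Stk39*. All 10 had a row among the 19829 genes of the deposited table. WT+AKI denotes wild-type control mice, and TG+AKI denotes mice that overexpress *Inmt* (indolethylamine N-methyltransferase) in proximal tubules, on a C57BL/6 background. In the study, both groups were male and received voclosporin, a calcineurin inhibitor, at 30 mg/kg. Dosing ran for 2 weeks, from 8 to 10 weeks of age. Both groups underwent bilateral renal ischemia of 30 min and reperfusion (I/R) at 14 weeks. Neither library thus came from mice without the drug or the injury, but by this account dosing had ended before I/R. Another passage of the study places I/R at the end of a longer course of voclosporin. The submitted treatment field names no treatment, the title of the TG+AKI sample also mentions a conditional knockout, and the kidney was collected 24 h after I/R by one account and 48 h by another. Whether RNA of several mice was pooled in a library is not given in the sources used here. The transgene acts in proximal tubules, and its promoter is not given in the sources used here. A whole-kidney value does not show in which segment a gene was expressed, and this was not tested for the 10 genes.

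The thick ascending limb reabsorbs sodium chloride through the cotransporter NKCC2 (*Slc12a1*), and chloride leaves the cell on the blood side. The positive voltage that this creates in the lumen drives calcium and magnesium between the cells, through pores formed by claudins 16 and 19. In the distal convoluted tubule, WNK kinases activate SPAK and OSR1, which phosphorylate the thiazide-sensitive cotransporter NCC (*Slc12a3*), while KLHL3 and cullin 3 mark WNK kinases for degradation. Calcium and magnesium that remain in the urine are taken up across the cell by the channels TRPV5 and TRPM6, and calbindin carries calcium through the cytosol. Calcineurin inhibitors are known in patients for magnesium loss and for high potassium with hypertension, both of which arise in these segments.

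Depth was alike, with 38542764 reads for WT+AKI and 36427421 for TG+AKI. Values are normalised read counts as deposited, and 1 read corresponds to 0.0236 in WT+AKI against 0.0302 in TG+AKI. Square brackets hold 95% intervals, computed by the Clopper-Pearson method (exact) from the reads of both libraries. They cover counting error only, since reads are PCR products without molecular identifiers. With 1 library per group, no difference has a replicate check and no p-value is given. Log2 fold changes are TG+AKI over WT+AKI, with 1 added to each value before the logarithm, so that changes of low genes are understated. *Inmt*, examined as a check of the labels, was listed at 10.4 in the WT+AKI kidney and 402.8 in the TG+AKI kidney, 38.5-fold higher [35.1 to 42.5].

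Of the 10 genes, 9 were higher in TG+AKI and 1, *Trpv5*, was lower. *Pvalb*, *Bsnd* and *Klhl3* differed most, at 27.6-fold, 4.02-fold and 3.30-fold higher. *Calb1*, *Wnk4*, *Wnk1*, *Stk39*, *Umod* and *Trpm6* were between 1.35-fold and 1.85-fold higher, and *Trpv5* was 1.87-fold lower. Thus the calcium channel and the calcium-binding protein that act in the same cells differed in opposite directions. The comparison across genes required a value of 10 in 1 or both libraries, which 8 genes reached. *Trpm6* and *Pvalb* did not, and their values are given without entering the counts. Of the 8 genes, 2 (*Bsnd* and *Klhl3*) passed 2-fold upward, against 5.74% of the 10294 genes compared, and 0 passed it downward, against 7.12%. The median log2 fold change was 0.65 over the 8 genes and 0.01 over all genes compared. Over every listed gene, with no minimum, *Pvalb* also passed 2-fold, against 3.95% of genes higher and 5.8% lower. In the same libraries all 11 proximal tubule markers were higher and all 10 injured tubule markers lower in TG+AKI. In a whole kidney, fewer cells of a type and less RNA per cell cannot be told apart, and the part of tissue make-up and of injury in the differences of the 10 genes was not tested.

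The read intervals lay above 1 for 7 of the 8 compared genes and below 1 for *Trpv5*. At this depth the same held for 41.8% and 39.5% of all genes compared, so that an interval off 1 was common among all genes. The direction was the same for all 10 genes under the 3 other scalings tried. When both libraries were scaled to equal totals, which lowered the median of all genes by 0.26 on the log2 scale, *Bsnd* was 3.32-fold and *Klhl3* 2.73-fold higher, while *Umod* (1.11-fold) and *Stk39* (1.13-fold) were close to the WT+AKI level. Under that scaling the interval of *Trpm6* included 1 [0.945 to 1.31], and *Trpv5* passed the 2-fold limit with a log2 fold change of -1.11. The same scaling moved the split of all genes past 2-fold from 591 higher and 733 lower to 368 and 1103.

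**Figure D1:**
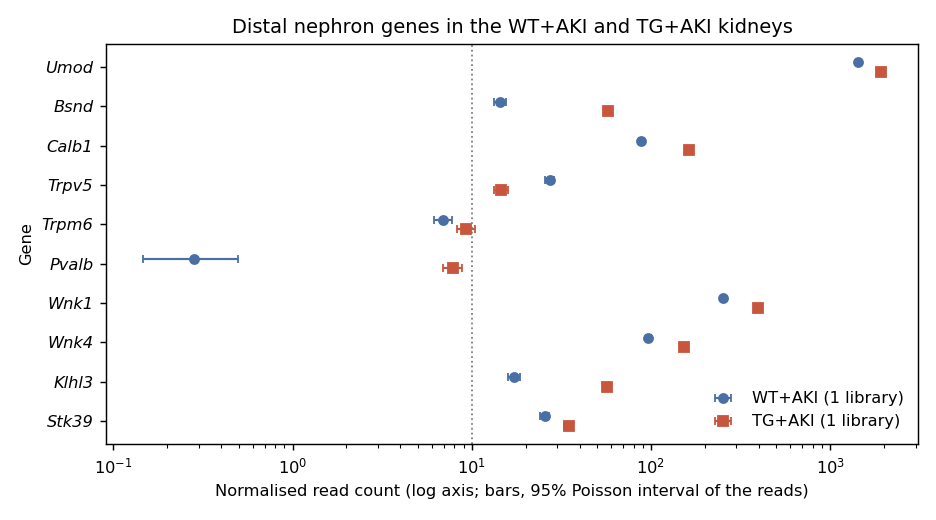
Normalised read counts of the 10 genes (log axis) in the WT+AKI library (blue circles) and the TG+AKI library (red squares), with 95% Poisson intervals of the reads as bars and a dotted line at 10, the minimum for the comparison across genes. Only *Trpv5* lies to the left in TG+AKI, and *Pvalb* spans the widest distance, from 0.283 to 7.82.

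**Figure D2:**
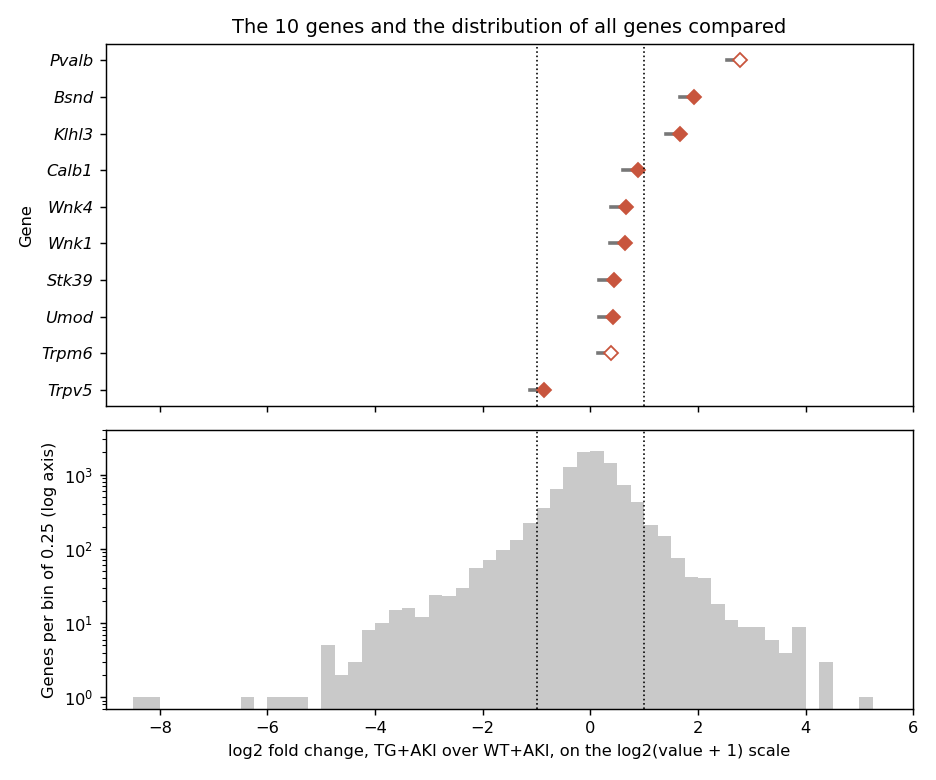
Log2 fold changes of the 10 genes (upper panel, red diamonds, open where the gene stayed under the minimum of 10; grey lines span the 4 scalings) above the distribution of 10294 genes (lower panel, log axis); dotted lines mark 2-fold. *Bsnd* and *Klhl3* lie beyond the right line under each scaling, and *Trpv5* crosses the left line under equal totals.

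Promoter sequences of 8 of the 10 genes were found in the RefSeq table of build GRCm38.p6, and 4 are printed: those of *Umod*, the gene of the group with the most reads, of *Klhl3* and *Pvalb*, with ratios of 3.30 and 27.6, and of *Trpv5*, the gene that was lower. Each run reads 5′ to 3′ on the strand of the gene, from 250 bases before the annotated start to 50 bases after it. Capitals, in the *Trpv5* run, mark a motif, searched on both strands. *Umod*, chr7:119479213-119479512, minus strand; *Trpv5*, chr6:41680674-41680973, minus strand; *Klhl3*, chr13:58113598-58113897, minus strand; *Pvalb*, chr15:78206351-78206650, minus strand, the first of its 2 listed starts. The windows of *Trpv5* and *Klhl3* lie at starts inside the RefSeq span of the gene.
Umod: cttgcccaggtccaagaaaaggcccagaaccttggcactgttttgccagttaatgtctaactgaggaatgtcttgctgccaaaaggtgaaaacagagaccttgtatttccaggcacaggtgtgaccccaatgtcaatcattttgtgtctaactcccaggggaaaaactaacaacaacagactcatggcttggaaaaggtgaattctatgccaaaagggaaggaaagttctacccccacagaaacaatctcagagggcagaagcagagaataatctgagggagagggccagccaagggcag
Trpv5: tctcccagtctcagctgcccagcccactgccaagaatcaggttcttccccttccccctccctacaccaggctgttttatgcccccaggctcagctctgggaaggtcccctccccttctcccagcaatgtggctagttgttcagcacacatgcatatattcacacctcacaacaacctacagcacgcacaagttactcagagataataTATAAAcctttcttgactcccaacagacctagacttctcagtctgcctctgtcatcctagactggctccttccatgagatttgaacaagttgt
Klhl3: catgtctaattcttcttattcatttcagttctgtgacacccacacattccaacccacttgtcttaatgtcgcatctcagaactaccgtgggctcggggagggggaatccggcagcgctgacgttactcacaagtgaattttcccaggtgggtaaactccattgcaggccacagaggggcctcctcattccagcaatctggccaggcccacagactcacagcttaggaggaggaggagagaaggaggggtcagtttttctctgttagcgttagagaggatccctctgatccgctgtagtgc
Pvalb: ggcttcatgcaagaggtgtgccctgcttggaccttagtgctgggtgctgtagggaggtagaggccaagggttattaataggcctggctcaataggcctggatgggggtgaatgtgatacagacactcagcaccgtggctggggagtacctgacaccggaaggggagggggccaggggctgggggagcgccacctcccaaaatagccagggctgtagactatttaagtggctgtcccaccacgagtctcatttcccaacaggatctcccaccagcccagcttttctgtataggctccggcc

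The *Trpv5* promoter holds a TATA box (TATAAA) at position -43 from the start, a motif found in 13.6% of the 32851 promoters in the table. The windows of the other 7 genes held neither this motif nor a nuclear receptor half-site (AGGTCA, 16.3% of promoters) or an AP-1 motif (TGAGTCA, 5.2%), and the *Trpv5* window held neither of the latter. A match or its absence is a description of these letters only.

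*Umod* encodes uromodulin, the most abundant urinary protein in health, which thick limb cells release into the lumen. It lies on chromosome 7 (119462708 to 119479262, minus strand, gene ID 22242), and its longest annotated transcript has 11 exons. Uromodulin transcripts reached a value of 1427.1 in the WT+AKI kidney (60503 reads) and 1921.1 in the TG+AKI kidney (63620 reads), a ratio of 1.35 [1.33 to 1.36]. *Umod* took 72.9% of the joint reads of the 10 genes in WT+AKI and 68.2% in TG+AKI. Its log2 fold change of 0.43 ranked above 80.2% of the genes compared. An antisense gene, *Gm44588*, covers 19.5% of the exonic bases of *Umod*, and whether the counting used the strand is not given in the sources used here.

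*Bsnd* encodes barttin, an accessory subunit needed for chloride exit across the basolateral membrane of thick limb, distal tubule and intercalated cells. It lies on chromosome 4 (106483456 to 106492243, minus strand, gene ID 140475), with 4 exons in its single annotated transcript. Barttin transcripts reached a value of 14.4 in the WT+AKI kidney (611 reads) and 57.9 in the TG+AKI kidney (1917 reads), a ratio of 4.02 [3.67 to 4.41] and a log2 fold change of 1.93, above 98.8% of genes compared.

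To set these differences beside related genes, reads of a gene were divided by those of a partner in the same library, which requires no scaling. Partners are genes of the same segment or the same pathway. They need not be expressed in the same cells only, so the ratios are not free of tissue make-up. The 18 pairs were chosen after the values were seen, and their intervals are log-scale Poisson intervals of the reads. For every 100 reads of *Slc12a1* there were 361.0 reads of *Umod* in WT+AKI against 183.2 in TG+AKI. *Umod* was therefore 1.97-fold lower relative to *Slc12a1* [1.93 to 2.01], although its own value was higher, as *Slc12a1* was listed at 395.3 and 1048.6. Relative to *Cldn19*, in contrast, *Umod* was 1.53-fold higher [1.40 to 1.67]. *Bsnd* was 4.11-fold higher relative to *Atp6v1g3* [3.67 to 4.62], a proton pump subunit of intercalated cells that was listed at 42.0 and 41.0.

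*Calb1* encodes calbindin-D28k, the cytosolic calcium carrier of the late distal convoluted and connecting tubule. It lies on chromosome 4 (15881264 to 15906709, plus strand, gene ID 12307). Calbindin transcripts reached a value of 88.2 in the WT+AKI kidney (3740 reads) and 163.2 in the TG+AKI kidney (5403 reads), a ratio of 1.85 [1.77 to 1.93] and a log2 fold change of 0.88, below the 2-fold limit. *Trpv5*, the apical calcium channel of the same cells, lies on chromosome 6 (41651661 to 41681224, minus strand, gene ID 194352). The channel transcript reached a value of 27.2 in the WT+AKI kidney (1153 reads) and 14.6 in the TG+AKI kidney (482 reads), 1.87-fold lower [1.68 to 2.08] with a log2 fold change of -0.86. Only 8.85% of the genes compared had a lower log2 fold change.

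For every 100 reads of *Calb1* there were 30.8 reads of *Trpv5* in WT+AKI against 8.92 in TG+AKI, so that *Trpv5* was 3.46-fold lower relative to calbindin [3.08 to 3.87]. It was 3.24-fold lower relative to *Slc8a1* [2.86 to 3.67] and 1.22-fold lower relative to *S100g* [1.09 to 1.36]. Relative to *Trpv6* it went the other way, with 640.6 reads for every 100 of that gene in WT+AKI against 964.0 in TG+AKI (interval of the ratio [1.08 to 2.10]). The related channel gene *Trpv6* was also lower, at 4.25 (180 reads) and 1.51 (50 reads), a ratio of 0.356 [0.255 to 0.489]. *Trpv5* and *Trpv6* are paralogs, and none of the 100-base words of the longest *Trpv5* transcript occurred in another annotated gene. The smaller calbindin gene *S100g* (calbindin-D9k) was lower as well, at 298.8 and 195.3, a ratio of 0.653 [0.634 to 0.673]. *Calb1* was 2.83-fold higher relative to *S100g* [2.69 to 2.98], so that the calbindin genes differed in opposite directions.

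On the basolateral side, calcium leaves the cell through the sodium-calcium exchanger NCX1 (*Slc8a1*) and the calcium pump PMCA1 (*Atp2b1*). *Slc8a1* had values of 36.1 and 62.6 (ratio 1.73 [1.62 to 1.85]), and the ratio of *Calb1* to *Slc8a1* reads differed by less than counting error (1.07-fold [0.987 to 1.15]). *Atp2b1* was listed at 96.0 and 95.5, and the interval of its ratio included 1 [0.950 to 1.04]. Of the regulators of the pathway, *Kl*, which encodes klotho, had a log2 fold change of 2.18, *Casr*, the calcium-sensing receptor gene, 1.58, and *Pth1r*, the parathyroid hormone receptor gene, 1.07. The vitamin D receptor gene *Vdr* was listed at 293.0 and 293.4. Over 12 compared genes of the calcium reabsorption list, which leaves out *Calb1* and *Trpv5*, 5 passed 2-fold upward and 0 downward, with a median log2 fold change of 0.89 (0.06 over all 15 listed, without the minimum). *Rrad*, under the minimum at 8.63 and 1.69, had the lowest log2 fold change of that list, -1.84. *Trpv6*, also under the minimum, had a log2 fold change of -1.06, so neither gene entered the downward count.

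*Trpm6* encodes the apical magnesium channel of the distal convoluted tubule. It lies on chromosome 19 (18730177 to 18892521, plus strand, gene ID 225997), with 39 exons in its longest transcript. The magnesium channel transcript had a value of 6.89 in the WT+AKI kidney (292 reads) and 9.27 in the TG+AKI kidney (307 reads), a ratio of 1.35 [1.14 to 1.59]. The reads themselves numbered nearly the same, so that the ratio depends on how the libraries are scaled. Relative to *Slc12a3*, which marks the same segment and was listed at 98.5 and 507.0, *Trpm6* was 3.82-fold lower in TG+AKI [3.25 to 4.50].

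*Pvalb* encodes parvalbumin, a calcium buffer of fast muscle, of some neurons and of the early distal convoluted tubule. It lies on chromosome 15 (78191112 to 78206400, minus strand, gene ID 19293), with 4 exons in its longest transcript. Parvalbumin transcripts reached a value of 0.283 in the WT+AKI kidney, from 12 reads, and 7.82 in the TG+AKI kidney, from 259 reads, a ratio of 27.6 with a wide interval [15.5 to 54.2]. The log2 fold change was 2.78 and would stand above 99.6% of the genes compared, but it was 4.37 with a pseudocount of 0.1 and 0.79 with one of 10. *Pvalb* was higher relative to *Slc12a3* also, at 0.287 reads for every 100 reads of that gene in WT+AKI against 1.54 in TG+AKI (5.37-fold [3.01 to 9.59]). Of 7 skeletal muscle markers, only *Mylpf* was listed, at 0.826 and 0.634, and the other 6 had no row in the deposited table. No listed gene lacked reads in either library, so a gene read in a single kidney may also have no row.

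*Egf*, whose product stimulates TRPM6, was listed at 54.3 and 1159.6, 21.3-fold higher [20.5 to 22.3]. *Cnnm2* (ratio 1.58 [1.43 to 1.74]), *Trpm7* (1.57 [1.51 to 1.63]) and *Fxyd2*, a sodium pump subunit gene (1.80 [1.78 to 1.83]), were higher by less than 2-fold. *Slc41a1*, a magnesium transporter gene, was the lowest of the list with a log2 fold change of -1.10. Over 12 compared genes of the magnesium list, which leaves out *Trpm6* and *Pvalb*, 9 were above 0, 2 passed 2-fold upward and 1 downward, with a median of 0.63.

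*Wnk1* and *Wnk4* encode the kinases at the head of the pathway. *Wnk1* lies on chromosome 6 (119923969 to 120038695, minus strand, gene ID 232341) and *Wnk4* on chromosome 11 (101260537 to 101277409, plus strand, gene ID 69847). *Wnk1* was listed at 254.0 (10767 reads) in the WT+AKI kidney and 397.1 (13150 reads) in the other, a ratio of 1.56 [1.52 to 1.60]. *Wnk4* was listed at 96.7 (4101 reads) and 153.8 (5093 reads), a ratio of 1.59 [1.53 to 1.66]. For every 100 reads of *Wnk1* there were 38.1 reads of *Wnk4* in WT+AKI against 38.7 in TG+AKI, a difference of 1.02-fold that was within counting error [0.969 to 1.07]. *Wnk1* has 26 annotated transcripts, and a value per gene cannot tell apart the full-length kinase and the kidney-specific form known to lack most of the kinase domain. An antisense gene, *Gm11615*, covers 7.38% of the exonic bases of *Wnk4*. *Wnk2* (86 and 88 reads) and *Wnk3* (18 and 14 reads) were low, and both intervals included 1.

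*Klhl3*, the gene of the adaptor that brings WNK kinases to the cullin 3 ubiquitin ligase, lies on chromosome 13 (58000226 to 58123477, minus strand, gene ID 100503085). The adaptor transcript reached a value of 17.2 in the WT+AKI kidney (731 reads) and 56.9 in the TG+AKI kidney (1885 reads), a ratio of 3.30 [3.03 to 3.60] and a log2 fold change of 1.67, above 98.2% of genes compared. *Cul3* was listed at 119.4 and 151.1 (ratio 1.27 [1.22 to 1.32]). *Klhl3* was 2.61-fold higher relative to *Cul3* [2.37 to 2.86] and 2.08-fold higher relative to *Wnk4* [1.89 to 2.28], so the adaptor differed more than the kinase that it binds or the ligase scaffold. Relative to *Slc12a3* it was 1.56-fold lower [1.42 to 1.71].

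*Stk39* encodes SPAK, the kinase that WNK1 and WNK4 activate. It lies on chromosome 2 (68210445 to 68472108, minus strand, gene ID 53416). SPAK transcripts reached a value of 25.5 in the WT+AKI kidney (1083 reads) and 34.8 in the TG+AKI kidney (1153 reads), a ratio of 1.36 [1.25 to 1.48]. The sister kinase gene *Oxsr1* (OSR1) was listed at 66.8 and 64.6, and the interval of its ratio included 1 [0.914 to 1.02]. The ratio of *Stk39* to *Oxsr1* reads was 1.41-fold higher in TG+AKI [1.27 to 1.56]. *Slc12a3*, the end point of the cascade, was 5.15-fold higher [4.97 to 5.33], and *Wnk4* and *Stk39* were 3.24-fold [3.07 to 3.41] and 3.78-fold lower [3.45 to 4.13] relative to it. The cotransporter gene thus differed more than any kinase gene upstream of it.

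Over 16 compared genes of the WNK pathway other than the 4 described, 2 (*Slc12a1* and *Slc12a3*) passed 2-fold upward, 0 downward and 14 neither, with a median of 0.54. *Sgk1*, an aldosterone-induced kinase gene, was listed at 186.5 and 191.7, and *Nedd4l*, a ubiquitin ligase gene, was the lowest of the list at 114.9 and 97.7 (log2 fold change -0.23).

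**Figure D3:**
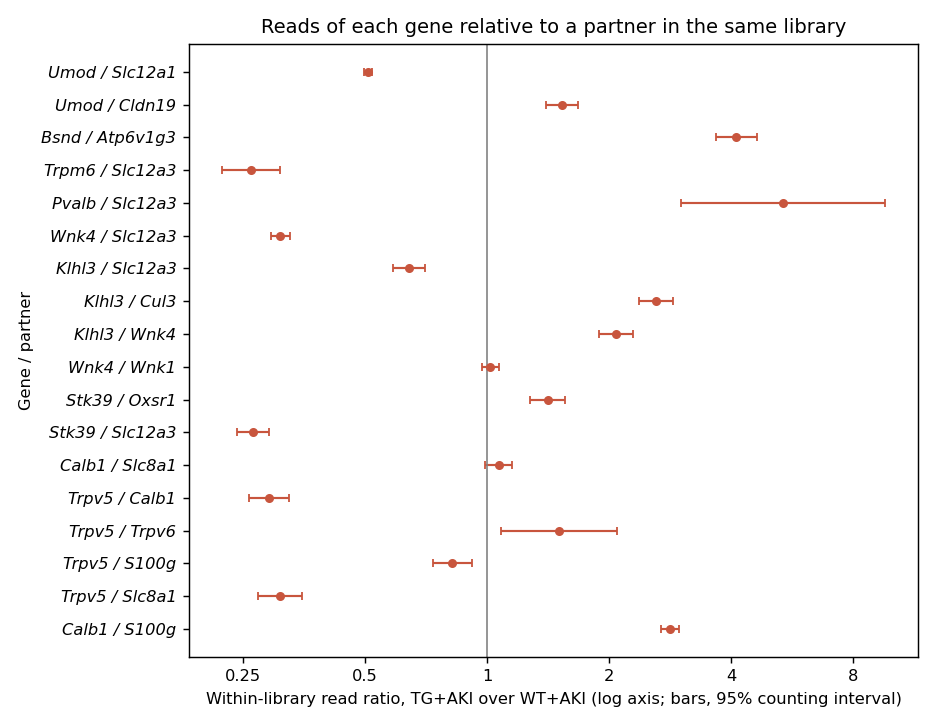
Reads of each gene divided by reads of a partner in the same library, given as TG+AKI over WT+AKI (log axis) with 95% counting intervals; the grey line marks an equal ratio. Of the 18 pairs, 2 have an interval that holds 1 (*Wnk4* to *Wnk1* and *Calb1* to *Slc8a1*), *Trpm6*, *Stk39*, *Trpv5* and *Wnk4* lie furthest left, and *Pvalb* and *Bsnd* furthest right.

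Levels were compared between genes per kilobase of the longest annotated transcript. *Umod* stood first in both kidneys, at 543.6 per kilobase in WT+AKI against 731.9 in TG+AKI. In WT+AKI it was 23.1-fold above *Wnk4* (23.5), which was followed by *Wnk1* (22.4) and *Calb1* (20.9), and the counting intervals of *Wnk4* and *Wnk1* overlapped. *Trpv5* (8.39), *Stk39* (7.22), *Bsnd* (5.23), *Klhl3* (2.41), *Trpm6* (1.06) and *Pvalb* (0.290) came next. In TG+AKI *Calb1* (38.6) stood before *Wnk4* (37.4), with overlapping intervals, and *Wnk1* (35.0). *Bsnd* followed at 21.0, *Stk39* at 9.85, *Pvalb* at 8.01 and *Klhl3* at 7.96, with overlapping intervals of the last pair. *Trpv5*, in the fifth place in WT+AKI, stood in the ninth (4.49), and *Trpm6* was last at 1.42. The order depends on the length used: per kilobase of the median transcript length, *Umod* stayed first in both kidneys, but in WT+AKI it stood 76.1-fold above *Wnk4*, and *Wnk1* (246.6) stood above *Wnk4* (27.9).

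The labelled tissue was checked against markers of nephron segments, excluding the 10 genes. Thick limb markers had a median log2 fold change of 0.96 over 8 genes, with 4 at least 2-fold higher. *Casr* was the highest, and *Cldn19* the lowest at 29.0 and 25.5, with an interval of its ratio below 1 [0.806 to 0.962]. *Cldn16*, under the minimum and outside the 8 genes, was listed at 9.10 and 8.27, with an interval that included 1 [0.776 to 1.06]. Neither claudin gene of the calcium and magnesium pore was thus higher. The distal convoluted tubule list had a median of 1.81 over only 3 genes, with *Slc12a3* at 2.35 and *Sgms2* at -0.13. Connecting tubule markers had a median of 0.55 over 6 genes, from *S100g* at -0.61 to *Klk1*, the kallikrein gene, at 0.99, and none passed 2-fold. The 10 genes were assigned to segments after their values were seen, and 8 have a list. Against these medians *Umod* was lower by 0.53 and *Bsnd* higher by 0.97 on the log2 scale. *Klhl3* differed from the distal convoluted tubule median by -0.15, *Wnk4* by -1.15, *Trpm6* by -1.43 and *Pvalb* by 0.97, which turned to -0.85 with a pseudocount of 10 and was 2.54 with one of 0.1. *Calb1* exceeded the connecting tubule median by 0.33, and *Trpv5* differed from it by -1.41.

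**Figure D4:**
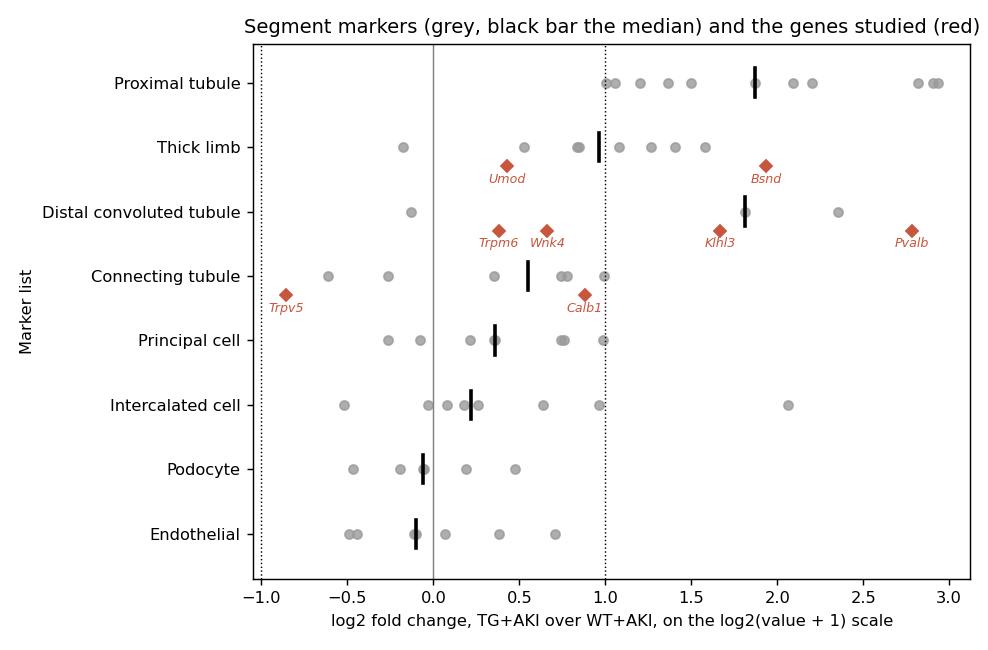
Log2 fold changes of the compared marker genes of 8 cell types (grey points, black bars their medians) with 8 of the 10 genes (red diamonds) placed under the list of their main segment. *Umod* lies left and *Bsnd* right of the thick limb markers' median, and *Trpv5* lies left of every connecting tubule marker.

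Markers of other cells also differed. All 11 proximal tubule markers were at least 2-fold higher, with a median of 1.87 and summed levels of 6069.4 and 22543.1. All 10 injured tubule markers were at least 2-fold lower, with a median of -3.49 and summed levels of 13873.0 and 933.3. Most of both sums came from *Spp1* (10182.6 and 670.5), and *Havcr1* (KIM-1) was listed at 1168.8 and 2.78. Of 6 immune markers compared, 4 were at least 2-fold lower (median -1.47, *Cd68* -3.99), as were 3 of 6 fibroblast and matrix markers (*Col1a1* -2.01). Principal cell (0.36, 8 genes), intercalated cell (0.22, 8 genes), podocyte (-0.06, 6 genes), endothelial (-0.10, 7 genes) and housekeeping markers (-0.16, 14 genes) had medians nearer 0. Of 5 fat and 5 adrenal markers, only *Fabp4* (49.3 and 36.9) and *Star* (2.15 and 1.45) were listed. A marker without a row may still have had reads in a single kidney.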

How the data were processed

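RNA of whole kidneys was sequenced in 2 libraries, WT+AKI and TG+AKI, named so in the labels. The submitters' processing notes and the study's methods give STAR 2.7.3a (build mm10), HTSeq and DESeq2, and the notes also name edgeR, FastQC and Cufflinks 2.2.1. The annotation and the strand setting are not given in the sources used here, and the kit was TruSeq Stranded mRNA.

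The deposited table holds a normalized signal per gene, that is, counts that the authors divided by 1 factor per library. Each value was a whole multiple of its column's smallest (100% of values, tolerance 0.01), so whole reads were recovered. The column sums were 909104 and 1099984, a CPM-like scale rather than that of counts divided by DESeq2 size factors. The step that set it is not given in the sources used here. Between the 2 libraries the scaling was close to that of such size factors, which would multiply the TG+AKI values by 1.01. A value of 10 equals 424.0 reads (WT+AKI) or 331.2 (TG+AKI). The exact binomial test on those reads with Benjamini-Hochberg adjustment compares 2 libraries rather than conditions and called 11405 of 19829 genes (57.5%).

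Genes reaching 10 in either library (10294) were compared as log2(value + 1), and a 2-fold difference was counted without a p-value. The 10 genes and the 18 pathway and marker lists were chosen with earlier results of these data known. Named genes were the 10 genes, *Inmt*, fixed partners, injury markers and the extremes of the lists. *Atp6v1g3* and *Spp1* were named after their values were seen. Some fixed partners and a planned promoter motif, which was not searched, are not reported here. Positions and promoters are from RefSeq (GRCm38.p6, the same build as mm10), transcripts and overlaps from GENCODE M21. Alternatives were pseudocounts of 0.1 and 10, equal column totals, a median ratio of 1 among genes reaching 100, size factors as in DESeq2, no minimum or one of 50, and other transcript lengths. The code was tested on simulated data and ran in Python 3.11.15, numpy 2.4.6, scipy 1.17.1, pandas 2.3.3 and matplotlib 3.10.9.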

Additional observations from a re-analysis of the deposited data

How the results depend on the processing

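The 2 genes at least 2-fold higher (*Bsnd* and *Klhl3*) passed under each alternative tried, and *Pvalb* joined them without a minimum. With equal column totals 1 gene, *Trpv5*, was at least 2-fold lower. No log2 fold change of the 10 genes changed sign under the 5 alternatives for single genes, but equal totals moved 9 of them by more than counting error. Over all genes, the numbers at least 2-fold higher and lower were 372 and 408 with a pseudocount of 10, 368 and 1103 with equal totals, and 374 and 295 with a minimum of 50. Without a minimum 1150 genes were lower, and the ratio without a pseudocount or minimum, an alternative chosen after seeing the data, gave 1821 and 2489. The order per kilobase was the same with the longest coding transcript, whereas with the median transcript length 5 of the 10 genes kept their place in WT+AKI and 3 in TG+AKI. Relative to the distal convoluted tubule markers, *Pvalb* changed sign with a pseudocount of 10 (-0.85). The median of intercalated cell markers changed sign with equal totals (-0.049), and that of podocyte markers with a minimum of 50 (0.19, fewer genes). No paired analysis was possible because each group has 1 library, and for the same reason no library could be left out. The 12 reads of *Pvalb* in WT+AKI limit its ratio.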
